A study of Solanum tuberosum with 9 samples.

Results

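ADH1 is the potato gene for alcohol dehydrogenase, and it was followed as 1 row of the 25702 genes in the deposited count and FPKM tables. It was chosen by its symbol. The tables come from 9 RNA libraries of stolons of the potato variety Kexin 13, the below-ground stems that form tubers at their tips. The plants had received 1 of 3 nitrogen treatments, with 3 libraries each. In the labels AN0 is nitrogen deficiency, AN1 the conventional supply and AN2 an excess of nitrogen. The study asks how tuber formation responds to nitrogen. The labels give no dose, plant age or sampling time, and they leave unsaid which plants or pots each library was made from. The p-values below therefore rest on library-to-library spread alone, part of which may be technical.

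Alcohol dehydrogenase catalyses the last step of ethanol fermentation. Pyruvate decarboxylase turns pyruvate, the end product of glycolysis, into acetaldehyde, and alcohol dehydrogenase reduces the acetaldehyde to ethanol while it turns NADH back into the NAD+ that glycolysis needs. Plant cells use this route when oxygen is short, as in flooded roots and inside bulky organs such as tubers, and alcohol dehydrogenase is among the classic proteins that plants make under low oxygen. Lactate dehydrogenase serves the same purpose by reducing pyruvate to lactate.

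The reference gene table (RefSeq, assembly SolTub_3.0) gives the record ADH1 the synonyms ADH2 and ADH3, and it holds no other record with an ADH symbol or synonym. The row may therefore carry reads from more than 1 gene copy, and how the counting treated reads shared by such copies is not known. The strand setting of the counting is not given in the sources used here, so reads from an overlapping antisense transcript could not be told apart either. The deposited FPKM values imply a transcript length of 1428 bases for this row.

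ADH1 was an abundant transcript. Its mean over the 9 libraries was 497 FPKM (fragments scaled for gene length and library total), and 224 of the 25702 genes had a higher mean. Between 2749 and 55126 counts fell on ADH1 per library, out of library totals of 30952622 to 38235348. Counting error was small at this depth. In AN2-3, the library with the fewest, ADH1 took 0.00888% of all counts, with a 95% Wilson interval of 0.00856% to 0.00922%.

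ADH1 had its lowest mean under nitrogen excess, and it varied widely within every treatment. The values that follow are CPM, counts scaled to a common library total with TMM factors. Under deficiency ADH1 stood at 363 CPM in AN0-1, 1199 CPM in AN0-2 and 1644 CPM in AN0-3. Under conventional supply it stood at 1288 CPM in AN1-1, 558 CPM in AN1-2 and 838 CPM in AN1-3. Under excess it stood at 248 CPM in AN2-1, 507 CPM in AN2-2 and 73.3 CPM in AN2-3. All 3 excess libraries lay below all 3 libraries of conventional supply, while AN0-1 lay between 2 excess libraries, below AN2-2 and above AN2-1. The highest library, AN0-3, held 22.4 times the ADH1 of the lowest, AN2-3.

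In the order of the treatment means, deficiency stood at 1069 ± 650 CPM, conventional supply at 895 ± 368 CPM and excess at 276 ± 218 CPM (SD, n = 3 each). Deficiency and conventional supply, neighbours in this order, differed by less than the spread of either. The lowest library of conventional supply was 1.10 times the highest of excess, so the gap between these neighbours was narrow. The deposited FPKM gave the same order, with 696 ± 404 FPKM in AN0, 598 ± 239 FPKM in AN1 and 198 ± 132 FPKM in AN2 (SD, n = 3 each). By FPKM, ADH1 ranked 110th to 348th of all genes in the AN0 libraries, 135th to 263rd in the AN1 libraries and 455th to 2023rd in the AN2 libraries.

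**Figure D1:**
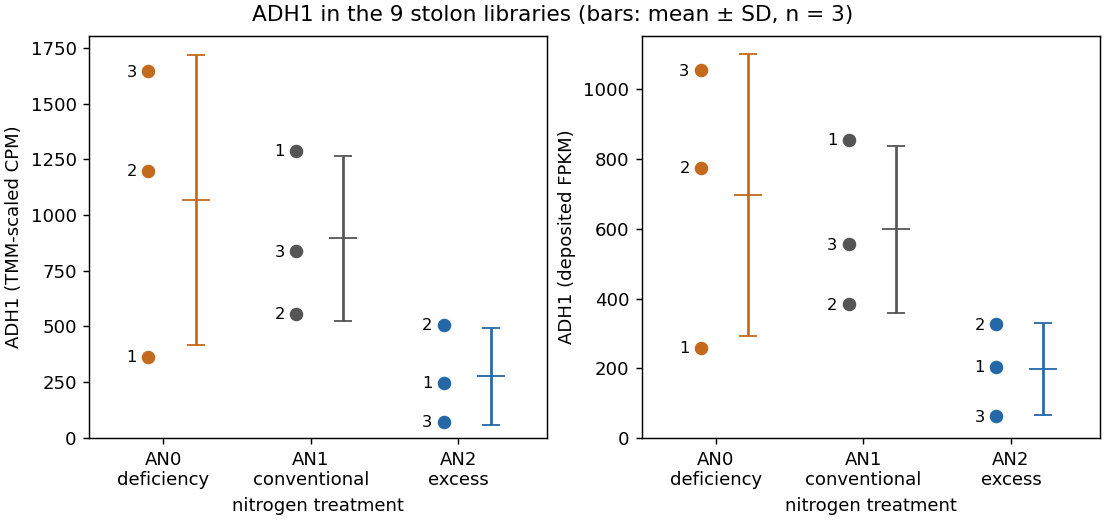
ADH1 in each library (points, numbered by replicate) under the 3 nitrogen treatments, as TMM-scaled CPM (left axis panel) and as deposited FPKM (right axis panel), with the mean ± SD of 3 libraries beside the points. On the CPM scale the AN2 libraries reach 507 at most, below all AN1 libraries, while the AN0 libraries spread from 363 to 1644.

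Replicate libraries differed more for ADH1 than for most genes. The highest library of a treatment exceeded the lowest by 4.52 times in AN0, 2.31 times in AN1 and 6.91 times in AN2 on the CPM scale. The biological coefficient of variation that edgeR estimated for ADH1 was 0.586, against 0.417 for all genes in common, and 86.1% of the 21223 tested genes had a lower one.

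Nitrogen excess against conventional supply gave ADH1 a fold change of -1.70 ± 0.73 on the log2 scale (SE), which did not pass the test over all genes (edgeR adjusted p = 0.346, unadjusted p = 0.0437). An interval of 2 standard errors reached from -3.16 to -0.24. Of all tested genes 1.38% had a lower log2 fold change in this comparison, while 12.7% had a smaller unadjusted p and 13.8% had one under 0.05. In either direction edgeR called 0.697% of the tested genes. The 3 AN2 libraries did not overlap the 3 AN1 libraries, which in the downward direction was true of 9.26% of all tested genes. An exact two-sided permutation test of 3 libraries against 3 gave p = 0.1, the smallest it can give.

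Nitrogen excess against deficiency gave the larger difference, -1.95 ± 0.73 on the log2 scale (SE), and again no call (edgeR adjusted p = 0.169, unadjusted p = 0.0252). The interval of 2 standard errors reached from -3.42 to -0.48. Of all tested genes 2.71% had a lower log2 fold change here, while 14.9% had a smaller unadjusted p and 20.4% had one under 0.05. In this comparison edgeR called 3.65% of the tested genes in either direction. The groups overlapped because of AN0-1, and the exact two-sided permutation test gave p = 0.2. The comparisons with excess share the AN2 libraries, so the low values of that group enter both.

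Deficiency against conventional supply gave 0.26 ± 0.71 on the log2 scale (SE). This was far from a call (edgeR adjusted p = 0.953), with an interval of 2 standard errors from -1.16 to 1.68. That interval leaves room for a change of more than 1 on the log2 scale in either direction. In this comparison edgeR called 0.0471% of the tested genes. Without AN0-3 the ADH1 log2 fold change turned to -0.20 ± 0.78 (edgeR adjusted p = 0.937). Over the 3 treatments at once an exact permutation test on log2(CPM + 1), which compared the spread between treatment means over all 1680 arrangements of the 9 libraries, gave p = 0.104.

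The lower ADH1 under excess kept its direction but not its side of the threshold across tests. DESeq2 called ADH1 lower in AN2 than in AN0 (log2 fold change -1.95 ± 0.68, DESeq2 adjusted p = 0.0353), in a comparison where DESeq2 called 13.1% of all genes, and did not call it against AN1 (DESeq2 adjusted p = 0.128, with 6.01% of all genes called). Voom with quality weights, a limma fit that gives less weight to libraries far from their group, called it lower against both AN1 (-1.91 ± 0.35, limma adjusted p = 0.00405) and AN0 (-2.22 ± 0.45, limma adjusted p = 0.00618). That fit called 24.8% and 27.7% of all genes in these comparisons. With any 1 library left out edgeR made no call on ADH1, and its log2 fold change stayed negative, from -2.48 to -1.25 against AN1 and from -2.74 to -1.50 against AN0.

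**Figure D2:**
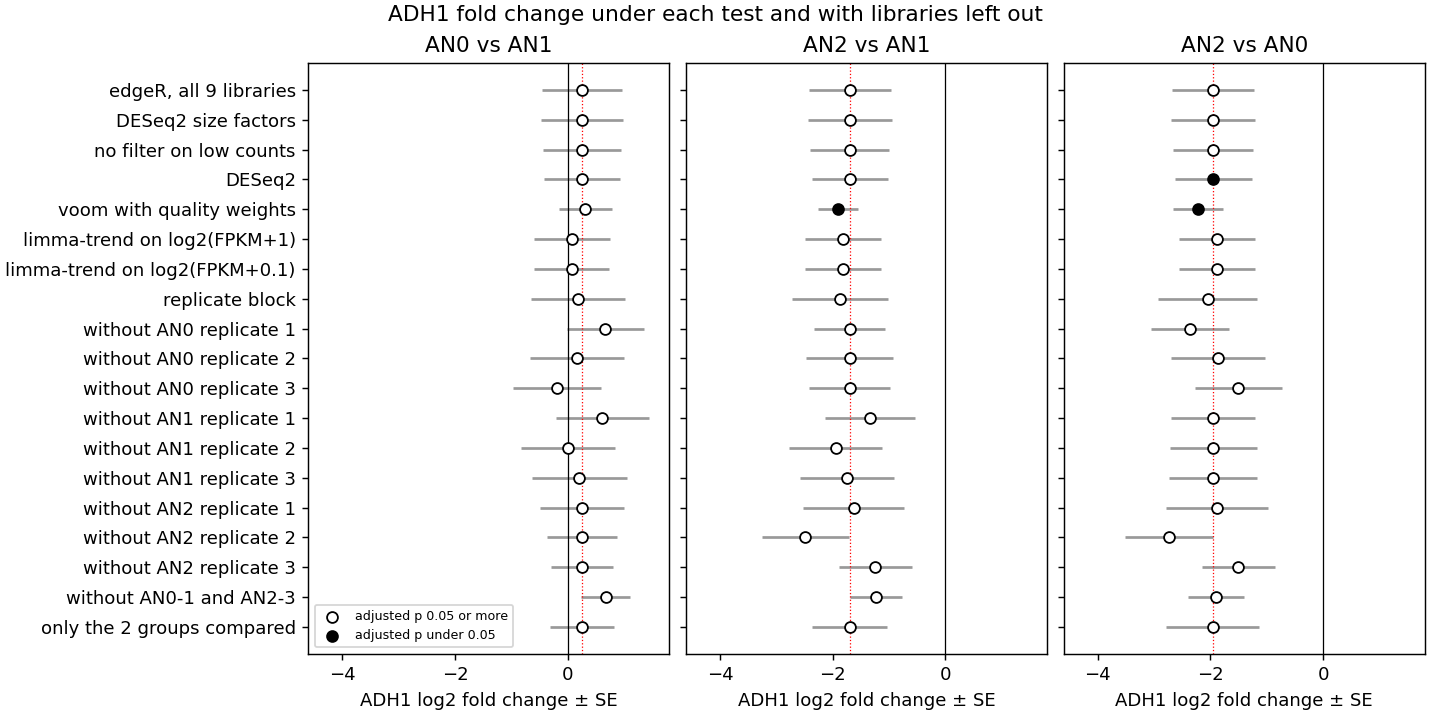
ADH1 log2 fold change ± SE (horizontal axes) in the 3 comparisons under each test, scaling and choice of libraries (rows), with filled points where the adjusted p is under 0.05 and a dotted line at the edgeR value from all 9 libraries. Both comparisons with AN2 stay negative in every row and are filled in 1 row against AN1 and 2 rows against AN0.

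The libraries also differed in tuber storage and photosynthesis transcripts, and the lowest ADH1 values fell in some of the same libraries. The 7 storage genes fixed as markers (patatin, 5 protease inhibitors and the starch synthase GBSS) summed to 1745 CPM in AN2-3. Their sum was 12224 CPM in AN0-1 and 15507 CPM in AN2-1, and in the other 6 libraries between 34393 and 53826 CPM. Of the 7 genes 6 were lowest in AN2-3, and the proteinase inhibitor PIN-II (LOC102577839) was highest there. The 3 libraries poorest in storage transcripts were the 3 lowest in ADH1. Among the other 6 the orders differed: AN1-1 had the lowest storage sum, 34393 CPM, and the second highest ADH1 of all libraries, 1288 CPM. The 7 photosynthesis genes summed to 747 CPM in AN0-1. In AN2-3 the sum was 569 CPM, and the other 7 libraries had 10.1 to 90.7 CPM. All 7 were highest in these 2 libraries, and the chlorophyll-binding cab1 (LOC102596966) had 0 counts in 4 of the others. AN0-1 and AN2-3 held the lowest ADH1 of their treatments. In bulk RNA, fewer cells that express ADH1 and less ADH1 RNA per cell cannot be told apart, and the part of tissue make-up in the ADH1 differences was not tested.

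AN2-2 differed from both other excess libraries in storage transcripts, and from AN2-3 alone in photosynthesis transcripts. Its storage genes summed to 48735 CPM, the second highest of the 9 libraries. Its photosynthesis genes summed to 73.5 CPM, close to the 72.1 CPM of AN2-1. The ADH1 of AN2-2, at 507 CPM, lay below that of the other 5 storage-rich libraries, at 558 to 1644 CPM. The margin to the nearest of them, AN1-2, was smaller than the spread within any treatment. With AN0-1 and AN2-3 both left out, all remaining AN2 libraries lay below all AN0 and AN1 libraries. This follows from leaving out AN0-1, since no other library overlapped the excess group. The share of all genes separated in these 7 libraries was not determined. The log2 fold change was then -1.91 ± 0.49 against AN0 (edgeR adjusted p = 0.0935) and -1.23 ± 0.46 against AN1 (edgeR adjusted p = 0.301), and edgeR called 1.39% and 0.0705% of the genes tested. The exact permutation test over the 3 treatments gave p = 0.0667 over 210 arrangements of these 7 libraries.

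**Figure D3:**
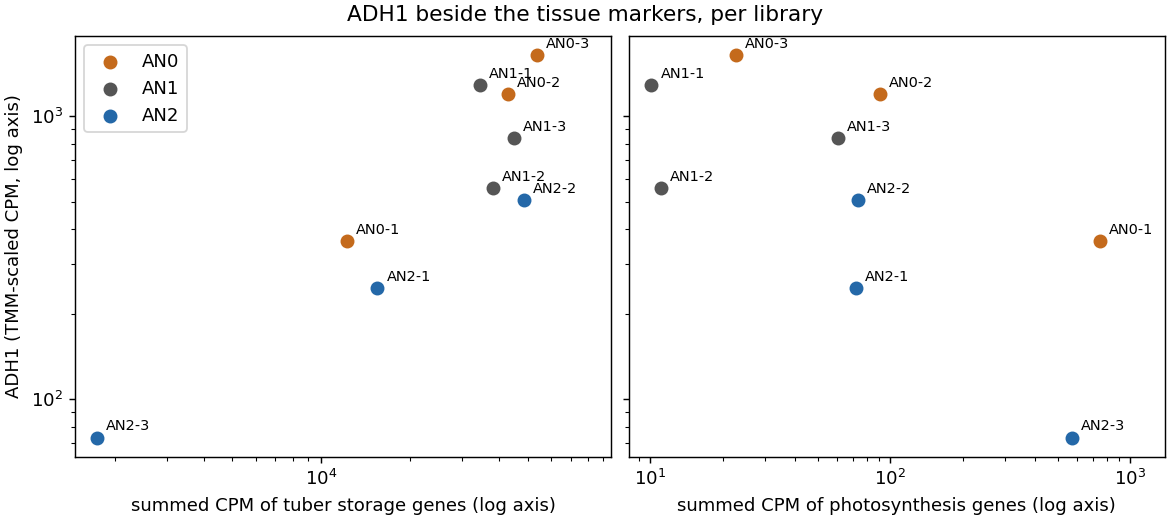
ADH1 in TMM-scaled CPM (vertical, log axis) against the summed CPM of 7 tuber storage genes (left) and of 7 photosynthesis genes (right, both log axes), 1 point per library coloured by treatment. AN2-3, AN2-1 and AN0-1 sit lowest in ADH1 and in storage transcripts, and AN2-2 sits at 507 CPM of ADH1 among the storage-rich libraries.

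Of the enzymes beside alcohol dehydrogenase in fermentation, the reference names only lactate dehydrogenase LDH-2. It varied far less than ADH1. By FPKM, LDH-2 stood at 24.1, 32.2 and 36.0 in AN0-1 to AN0-3, at 35.6, 31.1 and 37.3 in AN1-1 to AN1-3, and at 40.0, 34.6 and 34.7 in AN2-1 to AN2-3. The highest library was 1.66 times the lowest, against 17.0 times for ADH1 on the same scale. The log2 fold change of LDH-2 was -0.12 ± 0.23 when excess was set against conventional supply (edgeR adjusted p = 0.912) and 0.03 ± 0.23 against deficiency (0.954).

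Per length, ADH1 therefore stood at a changing multiple of LDH-2. The ratio of their FPKM was 10.7, 24.1 and 29.3 in AN0-1 to AN0-3 and 24.0, 12.3 and 14.9 in AN1-1 to AN1-3. In AN2-1 to AN2-3 it was 5.11, 9.43 and 1.79, so every excess library lay below every other library, AN0-1 included. For AN0-1 this rests on LDH-2, which was lowest there. Its ADH1 of 258 FPKM lay below the 326 FPKM of AN2-2. Such a ratio within a library does not depend on library scaling. The means were 21.4 ± 9.60 in AN0, 17.1 ± 6.15 in AN1 and 5.44 ± 3.83 in AN2 (SD, n = 3 each), and an exact permutation test of the log2 ratio over the 3 treatments gave p = 0.0321. This ratio was formed after the values of both genes had been seen and its p is not adjusted. The planned exact permutation test on ADH1 alone gave p = 0.104. Without AN0-1 and AN2-3 the test of the ratio gave exact p = 0.0190, from a subset of the same picked values. A ratio shows that the genes changed unequally, not which of them did.

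Glycolysis supplies the pyruvate that fermentation uses. All 9 listed glycolysis genes were tested, and under excess their log2 fold changes were negative for 9 of 9 genes against conventional supply (median -0.46) and for 9 of 9 against deficiency (median -0.51). Over all tested genes the medians were 0.02 and 0.01, and 48.6% and 49.6% were negative. Against conventional supply the hexokinases HXK1 (-0.02 ± 0.19) and HXK2 (-0.04 ± 0.19) lay close to 0. There 8 of the 9 were negative with voom, and likewise 8 in the edgeR fit that left out AN0-1 and AN2-3. None of the 9 passed the edgeR test in either comparison, with 2 genes at an unadjusted p under 0.05 in each, against 13.8% and 20.4% of all genes. DESeq2 called 1 and 2 of them lower, where it called 6.01% and 13.1% of all genes in either direction. Voom with quality weights called 5 and 5 lower, against 24.8% and 27.7% of all genes. On the CPM scale the AN2 libraries lay below all AN1 libraries in 6 of the 9 genes, against 9.26% of all genes. They lay below all AN0 libraries in 3, against 10%. By FPKM, PFP-ALPHA and PGAM alone kept this against AN1, and none of the 9 kept it against AN0. In AN2-1 and AN2-3, HXK1 stood at 43.3 and 38.6 FPKM and HXK2 at 23.6 and 27.1 FPKM. The AN1 libraries reached at most 35.2 FPKM for HXK1 and 20.5 FPKM for HXK2. For deficiency against conventional supply 5 genes were positive and 4 negative (median 0.11), with 0 called by edgeR, by DESeq2 (which called 3.2% of all genes) or by voom (4.84%), and 0 at an unadjusted p under 0.05.

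The differences in single glycolysis genes were smaller than that of ADH1. Phosphoglycerate mutase PGAM, which moves the phosphate group late in glycolysis, stood at 651 ± 21.8 CPM in AN2, 998 ± 42.8 CPM in AN1 and 928 ± 84.0 CPM in AN0 (SD, n = 3). On the CPM scale all of its AN2 libraries lay below all others, while by FPKM AN2-3 (409) lay above AN0-3 (406). Its log2 fold change for excess was -0.62 ± 0.24 against AN1 (edgeR adjusted p = 0.282, called by DESeq2 and by voom) and -0.51 ± 0.24 against AN0 (edgeR adjusted p = 0.261, likewise called by both). For PGAM a limma fit on log2(FPKM+1) gave -0.42 against AN1 and -0.30 against AN0, neither called (limma adjusted p = 0.447 and 0.490). GAPDH, which makes the NADH that alcohol dehydrogenase uses up, was the most abundant of the list with a mean of 1156 FPKM. It had a log2 fold change of -0.59 ± 0.38 against AN1 (edgeR adjusted p = 0.573) and -0.70 ± 0.38 against AN0 (0.345), with no call in any alternative. Without AN2-3 these values were -0.35 and -0.45.

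Excess against conventional supply gave -0.78 ± 0.32 for PFP-ALPHA, a subunit of the pyrophosphate-dependent phosphofructokinase (edgeR adjusted p = 0.311, called lower by voom). Excess against deficiency gave -0.80 ± 0.25 for the hexokinase-related HXKRP1 (edgeR adjusted p = 0.111, called lower by DESeq2 and voom). For the glucose-6-phosphate isomerase GPI it gave -0.51 ± 0.22 (edgeR adjusted p = 0.233, called lower by voom). In these comparisons a limma fit on log2(FPKM+1) gave -0.62 for PFP-ALPHA, -0.55 for HXKRP1 and -0.29 for GPI. None of these was called (limma adjusted p = 0.317, 0.267 and 0.563).

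Sucrose cleavage feeds sugar into glycolysis, and its 2 best expressed genes had differences of opposite sign under excess against conventional supply. Sucrose synthase SS16, which splits sucrose with UDP, stood at 4372 ± 1890 CPM in AN0, 3462 ± 604 CPM in AN1 and 1651 ± 1063 CPM in AN2 (SD, n = 3). It had 518 CPM in AN2-3 and a log2 fold change of -1.07 ± 0.58 for excess against AN1 (edgeR adjusted p = 0.476) and -1.41 ± 0.58 against AN0 (0.214). The vacuolar invertase PAIN-1, which splits sucrose with water, was highest in the photosynthesis-rich libraries with the lowest ADH1 of their treatments. It reached 209 CPM in AN0-1 and 208 CPM in AN2-3, with 17.9 to 94.7 CPM elsewhere. Its log2 fold changes were 2.28 ± 0.86 for deficiency (edgeR adjusted p = 0.380) and 2.14 ± 0.86 for excess (0.302), both against AN1. Each shrank without its highest library, to 1.36 without AN0-1 and to 0.95 without AN2-3. The SS16 value against AN1 was -0.64 without AN2-3. Of the 6 genes of the list 4 were tested and 0 were called in any comparison by edgeR, DESeq2 or voom. At an unadjusted p under 0.05 there were 1 for deficiency against conventional supply, 2 for excess against conventional supply and 1 for excess against deficiency, where 10.8%, 13.8% and 20.4% of all genes had one. The 2 that were not tested are the cell wall invertases InvGF and InvGE, at or near 0 counts everywhere.

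STWAAEIRD was the single gene found for the low-oxygen list. The reference gives this ethylene-responsive factor the synonym HRE2a, and in Arabidopsis genes named HRE are induced by low oxygen and act on fermentation genes. It stood at 34.7, 85.2 and 301 CPM in AN0-1 to AN0-3, at 79.4, 36.7 and 74.4 CPM in AN1-1 to AN1-3, and at 24.0, 57.4 and 8.80 CPM in AN2-1 to AN2-3. As for ADH1, AN0-3 was the highest library and AN2-3 the lowest. Its log2 fold change for excess was -2.22 ± 0.84 against deficiency (edgeR adjusted p = 0.172, called lower by DESeq2 and voom) and -1.08 ± 0.81 against conventional supply (edgeR adjusted p = 0.657, called lower by voom). For deficiency against conventional supply it was 1.14 ± 0.81 (edgeR adjusted p = 0.690), and it turned to -0.08 without AN0-3. The value against deficiency was -0.998 without AN0-3 (edgeR adjusted p = 0.427). That against conventional supply was -0.64 without AN2-3 and -1.95 without AN2-2.

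Alternative respiration is the branch of mitochondrial electron transport that bypasses proton pumping. Its list, to which the uncoupling protein UCP was added, had 4 genes with r between -0.82 and 0.21 against ADH1 over the 9 libraries (log2 CPM). For excess against deficiency edgeR called 1 of them (3.65% of all genes), the internal NADH dehydrogenase NDA1 (LOC102598594), which rose. Its mean was 0.71 ± 0.24 CPM in AN0 and 3.37 ± 1.30 CPM in AN2 (SD, n = 3), a difference of 2.25 ± 0.51 on the log2 scale (edgeR adjusted p = 0.0480). This call was lost when any 1 library other than AN2-2 was left out, with an adjusted p between 0.000548 and 0.150 over the alternatives. The alternative oxidase AOX had a log2 fold change of 0.97 ± 0.34 for deficiency against conventional supply (edgeR adjusted p = 0.344), and the uncoupling protein UCP 0.19 ± 0.30 for excess against deficiency (0.774). For excess against conventional supply 3 of the 4 genes were positive (median 0.75), where edgeR called 0 (0.697% of all genes), DESeq2 1 higher (6.01%) and voom 3 higher (24.8%), while 2 had an unadjusted p under 0.05 (13.8%). For deficiency against conventional supply 2 were positive (median 0.12), where edgeR, DESeq2 and voom called 0 and 1 had an unadjusted p under 0.05 (10.8% of all genes).

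**Figure D4:**
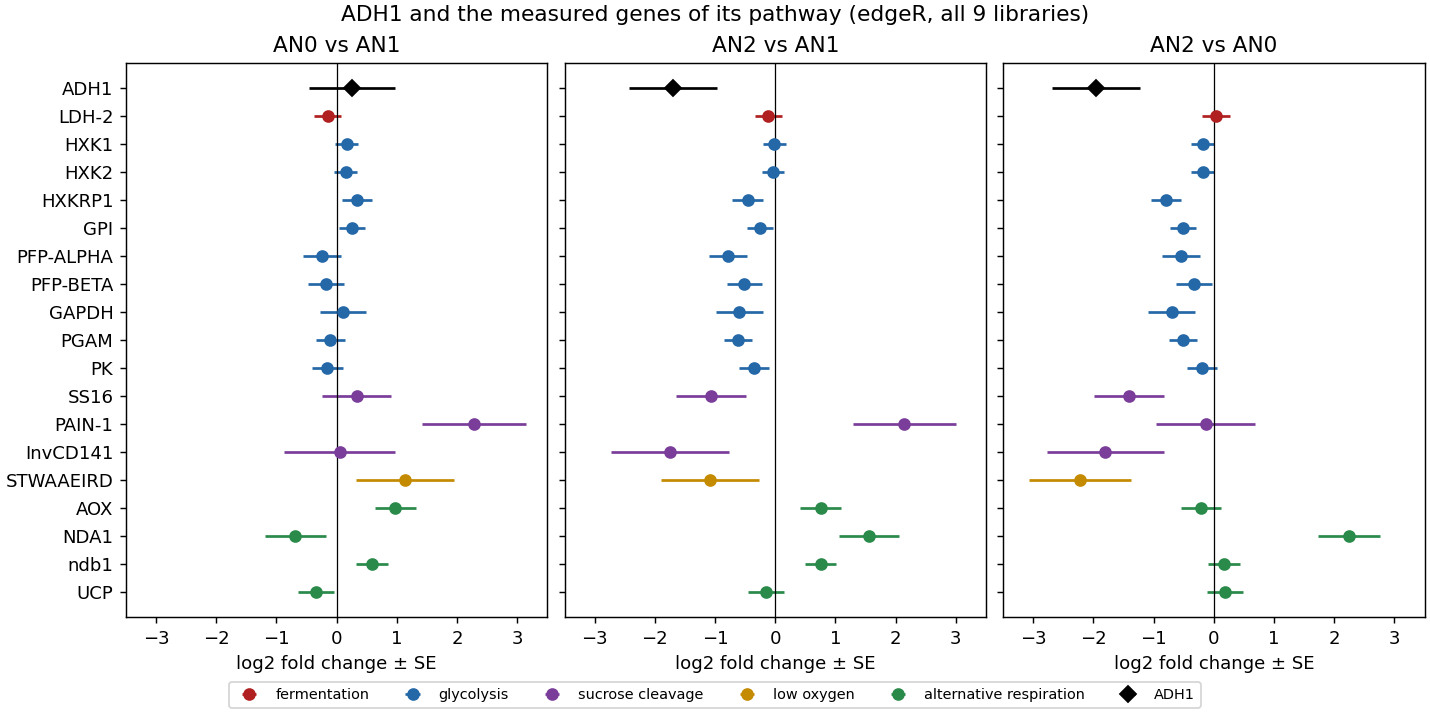
Log2 fold change ± SE from edgeR (horizontal axes) of ADH1 and of the tested genes of fermentation, glycolysis, sucrose cleavage, low oxygen and alternative respiration in the 3 comparisons. In both comparisons with AN2 the ADH1 value of -1.70 or -1.95 lies below all 9 glycolysis genes, and LDH-2 lies near 0. The invertase InvCD111, with no counts in 2 of the AN1 libraries, is left out.

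The genes whose levels were most like those of ADH1 were ranked by Pearson's r of log2 CPM over the 9 libraries, among the 14362 tested genes that averaged 5 CPM or more. The ranking is a description, since the genes were picked for their r and all of them share the same libraries. At r of at least 0.9 there were 211 genes, 1.47% of those ranked, and 12 of the 394 named ones among them. That count depended on the libraries and the scale. Without AN0-1 and AN2-3 there were 200 such genes, of which 65 were among the 211. Without AN0-3 and AN2-3, the libraries farthest from the ADH1 median, there were 98, and on log2(FPKM + 1) over all 9 libraries 69. The closest of all was LOC102598609, a gene known by number only (r = 0.987, rho = 0.983).

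Among named genes the closest was LOC102577534 (cyc07-like, r = 0.959, rho = 0.867), followed by LOC102598696 (aspP, r = 0.943, rho = 0.933). The low-oxygen list gene STWAAEIRD came next (r = 0.939, rho = 0.967), then the glycolytic GAPDH (r = 0.935, rho = 0.883) and LOC102577726, for the UDP-glucose pyrophosphorylase that acts after sucrose synthase (r = 0.924, rho = 0.917). Leaving out AN0-3 and AN2-3 gave r = 0.938 for STWAAEIRD, 0.870 for LOC102577534, 0.889 for LOC102598696, 0.878 for LOC102577726 and 0.776 for GAPDH. On the CPM scale the highest library exceeded the lowest by 34.2 times for STWAAEIRD and by 3.34 times for GAPDH, against 22.4 times for ADH1. Of the 7 storage marker genes 6 had r between 0.82 and 0.91 with ADH1, but lower rho, between 0.47 and 0.78. PIN-II had r = -0.22 and rho = -0.27.

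At the other end stood genes that were high where ADH1 was low, with 227 genes at r of -0.9 or below, 1.58% of those ranked. The most unlike named gene was LOC102587893 (GAI), for a DELLA protein that restrains gibberellin responses (r = -0.970, rho = -0.967). It stood at 44.6, 29.8 and 26.2 CPM in AN0-1 to AN0-3, at 31.1, 37.8 and 33.4 CPM in AN1-1 to AN1-3, and at 69.1, 56.5 and 129 CPM in AN2-1 to AN2-3. Every excess library lay above every other library, and 13.3% and 13% of all genes had AN2 above all AN1 or all AN0 libraries. Because the gene was picked for its r with ADH1 over these libraries, its difference under excess is no separate result. Its log2 fold change for excess was 1.32 ± 0.33 against AN1 (edgeR adjusted p = 0.119) and 1.34 ± 0.33 against AN0 (0.0589). DESeq2 and voom called it higher in both comparisons. Against AN0 it was also an edgeR call once AN2-2 was left out or once the pair AN0-1 and AN2-3 was, with adjusted p between 0.00221 and 0.182 over all alternatives. Next came the UDP-glucose epimerase STUGE45 (r = -0.944, rho = -0.950) and SRE1A (r = -0.938, rho = -0.967). Without AN0-3 and AN2-3 the r values were -0.903 for LOC102587893, -0.813 for STUGE45 and -0.891 for SRE1A.

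**Figure D5:**
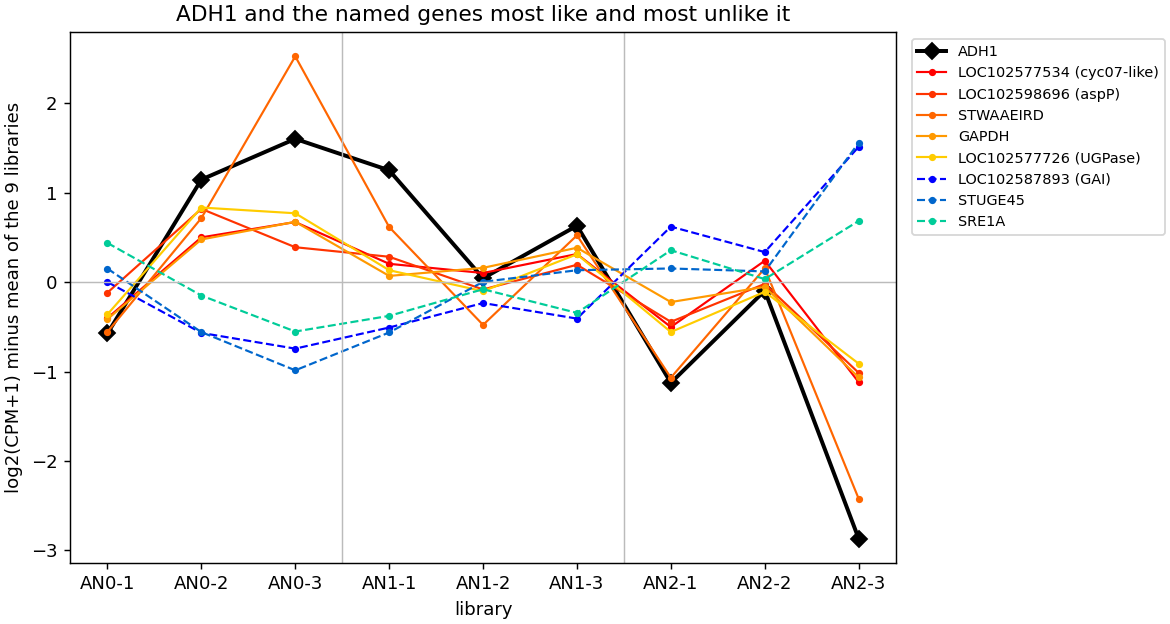
Log2(CPM + 1) of ADH1 and of the 5 named genes most like it (solid) and the 3 most unlike it (dashed), each minus its mean over the 9 libraries (vertical axis), by library (horizontal axis). The lines guide the eye only. STWAAEIRD spans a wider range than ADH1, while GAPDH follows it over a smaller range and LOC102587893 (GAI) mirrors it.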

How the data were processed

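Gene-level tables of 9 stolon RNA libraries (3 per treatment) were used as deposited. The authors deposited raw read counts, whole numbers with no normalization. The authors' FPKM table equals those counts divided by gene length and library total, with a largest relative deviation of 1.12e-07 over 20535 genes. Libraries were made from TRIzol-extracted RNA, per the labels' protocols. Tools listed, per the submitters' processing notes and with no role stated, are HISAT2, HTSeq, fastp, DESeq2 and R 3.2.0. The strand setting, annotation and genome build behind the counts are not stated by them or in the labels.

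Counts were tested with edgeR 4.0.16 (quasi-likelihood, robust, TMM factors, R 4.3.3) on the 21223 genes kept by filterByExpr, with 1 mean per treatment over all 9 libraries and no covariate. Adjusted p-values are Benjamini-Hochberg over all genes tested, with a threshold of 0.05. Standard errors are the fold change divided by the root of the F statistic. Alternatives used DESeq2 1.42.0, limma 3.58.1 (voom with quality weights, and limma-trend on log2 FPKM with pseudocounts of 1 and 0.1), other scaling, no filter, a replicate block, and libraries left out. The edgeR step was run on simulated data in which all genes had the same spread. That setting does not cover a gene of wider spread such as ADH1. Likeness used log2 CPM with a prior count of 2, and exact permutation tests used log2(CPM + 1). No 2 libraries of a treatment agreed within sampling noise.

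Names came from a RefSeq table of SolTub_3.0, where 25672 of 25702 gene IDs matched and 477 had a name other than a number. Pathway and marker lists were filled from those names. The genes named are ADH1, the 2 members of each list with the highest mean FPKM, called members, and by r the 5 most and 3 least alike named genes. PFP-ALPHA, HXKRP1, GPI, HXK1, HXK2, PIN-II, cab1 and the unnamed LOC102598609 were added after their values were seen. ADH1, the lists and the rules were chosen with earlier results of these data known.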

Additional observations from a re-analysis of the deposited data

How the results depend on the processing

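The log2 fold change of ADH1 for excess was negative in all 18 alternatives against AN1 (-2.48 to -1.23) and against AN0 (-2.74 to -1.50). It passed the threshold only with voom with quality weights against AN1 (-1.91), and with DESeq2 (-1.95) and voom (-2.22) against AN0, and adjusted p-values over the alternatives ran from 0.00405 to 0.672 and from 0.00618 to 0.370. For AN0 against AN1 no alternative called ADH1, and its log2 fold change ran from -0.20 to 0.67 with 1 library left out, the negative value being that without AN0-3. The values for LDH-2 lay near 0 and changed sign: AN2 against AN1 gave 0.0721 with limma-trend on log2(FPKM+1) and 0.0740 with log2(FPKM+0.1), and AN2 against AN0 gave -0.0178 with voom, -0.0396 without AN0-1 and AN2-3, and -0.15 to 0.19 with 1 library left out. STWAAEIRD ran from -0.0841 (without AN0-3) to 1.60 for AN0 against AN1 with 1 library left out. The median of the sucrose cleavage list for AN2 against AN1 moved from 0.54 to -0.99 without AN0-1 and AN2-3.

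Counts of called genes depended far more on the method, and the cause was not tested. For AN0 against AN1 edgeR called 10, DESeq2 679 and voom 1027, while limma-trend on log2(FPKM+0.1), the replicate block, the fit without AN0-1 and AN2-3 and the fit on only the 2 groups gave 0, and fits without 1 library 0 to 109. For AN2 against AN1 edgeR called 148 (137 higher and 11 lower), DESeq2 1275 (952 and 323), voom 5260 (2976 and 2284), limma-trend 410 and 322, the replicate block 5, the fit without AN0-1 and AN2-3 15, only the 2 groups 45, and fits without 1 library 0 to 367. For AN2 against AN0 edgeR called 774 (498 and 276), DESeq2 2784 (1531 and 1253), voom 5882 (2878 and 3004), limma-trend 1219 (948 and 271) and 1237 (962 and 275), the replicate block 166, the fit without AN0-1 and AN2-3 296, only the 2 groups 119, and fits without 1 library 110 to 1077. Same-numbered libraries did not deviate together (correlations of their deviations from the treatment means from -0.47 to 0.08), so the numbers give no pairing, and ADH1 under the replicate block had -1.87 against AN1, -2.05 against AN0 and 0.18 for AN0 against AN1, none of them called.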
